A study of Mus musculus with 9 samples.

Results

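This account describes the mouse bone marrow derived macrophages that were primed with LPS and then given saline, the control condition of an experiment on organotin compounds. The rule took the 3 arrays titled as LPS replicates out of 9 in all, and the arrays of cells given TMT or TET are used here only for a check of spread. Macrophages were grown from the femur marrow of C57BL6 mice aged 6 to 12 weeks in medium holding 10% L929-conditioned medium, which was withdrawn on day 5 in vitro. On day 6 they received 33 ng/mL ultrapure lipopolysaccharide (LPS, the outer membrane glycolipid of Gram-negative bacteria) for 3 h, and sterile saline was then added for 6 h. Each array is 1 of 3 biological replicates, and the labels do not say whether these came from separate mice, so the spread given below is that between these samples and may be partly technical. No array of unstimulated cells belongs to the series, so none of the levels below shows that LPS changed a gene.

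LPS is sensed by Toll-like receptor 4 together with CD14 and MD-2. Its signal runs through MyD88 to NF-kB, which drives inflammatory cytokines, and through TRIF to interferon beta, whose secretion turns on antiviral genes in the same cells. In macrophage work LPS is also the usual priming step for the NLRP3 inflammasome, the caspase-1 platform that matures interleukin-1 beta and interleukin-18.

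Of 45037 probe sets on the array, 34945 named a single gene, and each of the resulting 18193 genes was represented by its probe set with the highest mean over these 3 arrays. Signals are log2 values, so a difference of 1 is a 2-fold difference. Genes were ordered by mean signal and divided into 5 classes of 20% each. The lowest class is called dim (2.22 to 4.71), the middle class mid (5.98 to 7.83) and the highest class bright (9.88 to 14.67). The order of genes is a description of signals only, since probe sets differ in how strongly they respond to the same amount of RNA. Among 9010 genes with several probe sets, the brightest and dimmest probe set of a gene differed by a median of 1.93, and in 280 of 2625 such bright genes (10.7%) another probe set of the same gene lay in the dim range. In the bright class 18.5% of genes were read by probe sets whose names mark possible binding to related transcripts, against 9.11% of all genes. A bright signal therefore describes that probe set only, and a dim one does not show that a transcript was absent.

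The bases just upstream of 6 bright genes are printed here to show the letters of the motifs counted below. Rsad2 and Ifit1 are from the interferon list, Cxcl10 and Cxcl1 from the cytokine list, B2m from antigen presentation and Nfkbia from the NF-kB list, of which 1 of 19 promoters held an NF-kB motif. The genes were chosen for printing after their signals and matches were seen. Sequences are from RefSeq (GRCm38.p6), 220 bases each, 5′ to 3′ on the strand of the gene and ending at the base before its start. Capitals mark matches, on either strand, to TATAAA, to a pair of NF-kB motifs, and to the ISRE core (the repeated unit of the interferon-stimulated response element). TATAAA holds the letters of the TATA box. Matches at any position were taken, so a match need not be a TATA box. The capitals in Nfkbia and Cxcl1 show an NF-kB motif, on the strand opposite to the printed one and on the printed one, and those in Ifit1 show the ISRE core on the opposite strand.
Rsad2 (chr12:26456453-26456672, minus strand): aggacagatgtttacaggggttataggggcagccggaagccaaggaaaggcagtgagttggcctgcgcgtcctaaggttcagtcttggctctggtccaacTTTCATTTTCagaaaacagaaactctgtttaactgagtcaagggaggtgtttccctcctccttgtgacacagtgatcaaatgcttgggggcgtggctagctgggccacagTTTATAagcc
Ifit1 (chr19:34640669-34640888, plus strand): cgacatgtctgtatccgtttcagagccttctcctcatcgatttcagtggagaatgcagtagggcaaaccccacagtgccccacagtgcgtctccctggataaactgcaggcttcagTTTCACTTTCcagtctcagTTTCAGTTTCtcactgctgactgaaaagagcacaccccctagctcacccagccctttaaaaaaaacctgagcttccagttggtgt
Cxcl10 (chr5:92348890-92349109, minus strand): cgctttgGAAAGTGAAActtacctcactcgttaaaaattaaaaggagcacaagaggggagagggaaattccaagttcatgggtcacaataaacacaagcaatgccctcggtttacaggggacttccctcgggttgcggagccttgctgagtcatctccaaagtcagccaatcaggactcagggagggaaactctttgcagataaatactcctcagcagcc
B2m (chr2:122147467-122147686, plus strand): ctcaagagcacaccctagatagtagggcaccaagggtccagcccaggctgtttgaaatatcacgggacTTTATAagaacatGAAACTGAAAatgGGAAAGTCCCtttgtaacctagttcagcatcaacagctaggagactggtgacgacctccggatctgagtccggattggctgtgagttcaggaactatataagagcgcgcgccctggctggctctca
Nfkbia (chr12:55492648-55492867, minus strand): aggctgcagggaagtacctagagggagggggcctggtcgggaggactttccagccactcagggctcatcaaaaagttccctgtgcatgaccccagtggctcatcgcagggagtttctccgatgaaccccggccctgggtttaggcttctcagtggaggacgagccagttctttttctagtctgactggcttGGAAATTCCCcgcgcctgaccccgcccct
Cxcl1 (chr5:90891025-90891244, plus strand): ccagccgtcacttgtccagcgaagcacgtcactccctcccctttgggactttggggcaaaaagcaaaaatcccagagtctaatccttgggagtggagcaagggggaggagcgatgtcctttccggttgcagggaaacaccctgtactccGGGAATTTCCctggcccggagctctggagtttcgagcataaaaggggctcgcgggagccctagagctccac
In Rsad2, which encodes the antiviral enzyme viperin, the ISRE core match began at -120, counting the base before the start as -1. In Ifit1 there were matches to the same motif at -104 and -85, and in Cxcl10 there was 1 at -213. B2m held a match to the ISRE core at -139 and one to an NF-kB motif at -126. Nfkbia and Cxcl1 held an NF-kB match at -29 and -71 and none to the ISRE core. The TATAAA matches, on the opposite strand, began at -10 in Rsad2 and -152 in B2m. A match says only that these letters stand in this window and shows no binding.

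The 3 arrays were alike in distribution, which the RMA processing of the values brings about by itself. Their medians over genes were 6.74, 6.78 and 6.74 in replicates 1, 2 and 3, and their interquartile ranges were 4.25, 4.33 and 4.29. Across genes, which are not independent replicates, Pearson's r was 0.997 to 0.998 between pairs of arrays. Between 97.9% and 98.6% of genes lay within 0.5 of each other in a pair. The values carry no depth, and the number of arrays limits their precision.

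**Figure D1:**
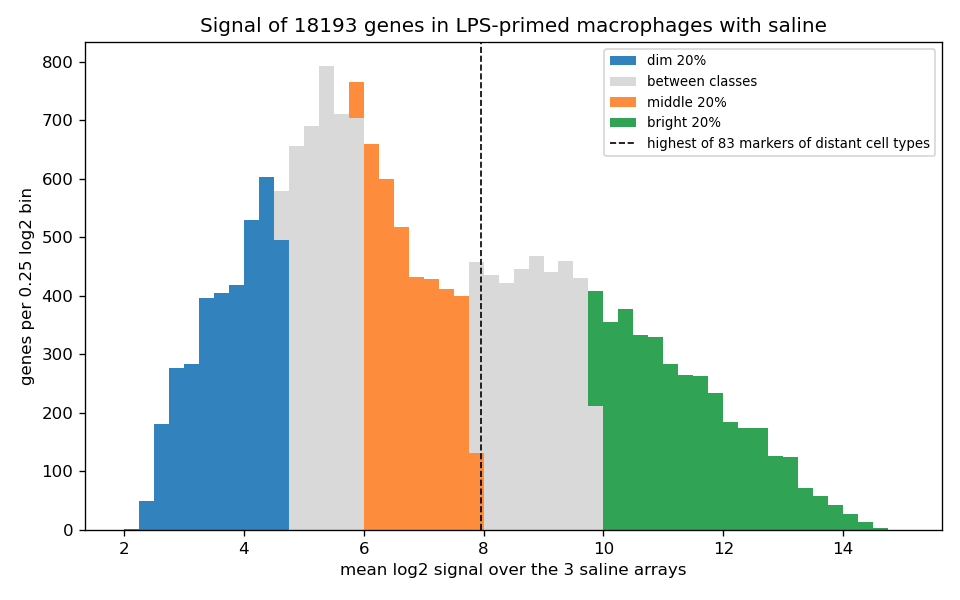
Number of genes (y axis) per 0.25 log2 bin of the mean signal over the 3 saline arrays (x axis), coloured by class, with a dashed line at the highest of 83 markers of distant cell types (7.96). Genes form a broad group around a log2 signal of 5 to 6 and a long shoulder toward the bright end, and 7037 of 18193 lie above the dashed line.

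The 30 brightest genes, with means from 14.15 to 14.67, mixed the common machinery of a cell with the products of an activated macrophage. Of these, 6 were ribosomal protein genes, 4 were chemokine genes, 3 were lysosomal and 3 belonged to the cytoskeleton. Malat1, a nuclear long noncoding RNA, had the highest signal, with 14.67, 14.63 and 14.72 in replicates 1, 2 and 3. Rpl41, a protein of the large ribosomal subunit, followed with 14.61, 14.60 and 14.63. Rsad2 came next with 14.54, 14.55 and 14.56, so an interferon target stood beside the ribosome. Tmsb4x, the actin-binding thymosin beta 4, read 14.44, 14.44 and 14.42. Ccl3, a chemokine that attracts monocytes and lymphocytes, read 14.41, 14.41 and 14.40, and its neighbour Ccl4 read 14.38, 14.31 and 14.34. Nfkbia, the inhibitor of NF-kB that NF-kB itself induces, read 14.23, 14.35 and 14.28. The values of these genes differed between arrays by far less than the distance to the edge of the bright class, at 9.88.

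Also among the 30 were the lysosomal proteases Ctsb (14.27 ± 0.0157; mean ± SD, n = 3 here and below) and Ctss (14.20 ± 0.0255), the sterol carrier Npc2 (14.20 ± 0.062) and the iron store Fth1 (14.16 ± 0.00735). The SDs of the 30 ran from 0.00428 (Rps29) to 0.0784 (Hnrnpab). Among the 100 brightest genes, 18 were ribosomal, 10 belonged to the macrophage list and 7 to the cytokine list, while 25 were in none of the lists. Of the 100, 35 were read by probe sets whose names mark possible binding to related transcripts, among them Lyz1 (14.40), Rpl41 and Malat1. Lyz1 has a close relative, Lyz2, which was read by another probe set (14.20), and how far the Lyz1 signal comes from Lyz2 was not tested.

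Macrophage identity genes were bright almost throughout: 29 of 36 measured were in the bright class and none was dim, beside 20% of all genes in each class. Csf1r, the receptor for the growth factor that maintains macrophages, read 14.27, 14.26 and 14.27 in replicates 1, 2 and 3. Lyz2, the lysozyme of myeloid cells, read 14.21, 14.17 and 14.23. Cd14, the LPS co-receptor, read 13.86, 13.80 and 13.87. Adgre1, which encodes the F4/80 antigen, read 12.94, 12.82 and 12.90, and Cd68, a lysosomal glycoprotein, read 13.21, 13.03 and 13.12. The high-affinity Fc receptor Fcgr1 read 13.18, 13.16 and 13.17 and the transcription factor Spi1 (PU.1) read 12.62, 12.44 and 12.41. Of the 9 defining markers measured, 7 were thus bright in every array.

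The other 2 defining markers lay just under the bright class. Itgam, the CD11b integrin chain, had a mean of 9.25 ± 0.115, and Mertk, a receptor for dying cells, one of 9.44 ± 0.0175. The complement genes C1qb (13.96), C1qc (13.49) and C1qa (12.33) and the signalling adaptors Fcer1g (14.05) and Tyrobp (14.03) were bright. Lowest in the list were Timd4 (4.84 ± 0.0109), a receptor of some resident tissue macrophages, and Cd163, the haemoglobin scavenger receptor. Cd163 also had the widest spread of the list: 6.11, 6.66 and 6.99 in replicates 1, 2 and 3. Replicate 1 was lowest there and replicate 3 highest. Most of these markers thus went with the labelled cell type. The list and its defining markers were chosen with results of these data known, so this is a description and no separate support for the label.

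**Figure D2:**
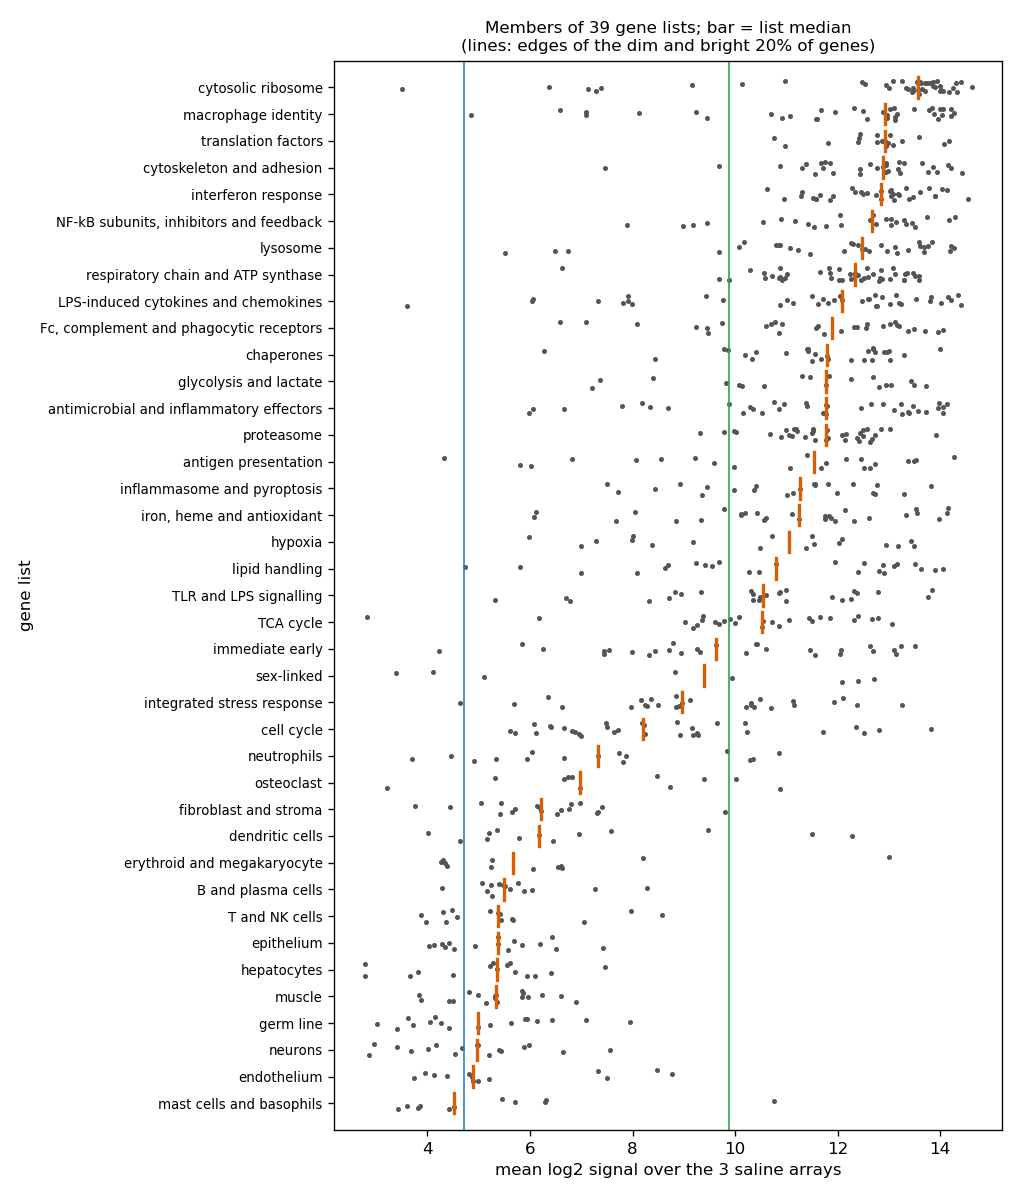
Mean log2 signal over the 3 saline arrays (x axis) of every measured member (points) of 39 gene lists (y axis), with orange bars at list medians and vertical lines at the edges of the dim (blue, 4.71) and bright (green, 9.88) classes. List medians run from 4.51 (mast cells and basophils) to 13.58 (cytosolic ribosome), and every member of the interferon and translation factor lists lies right of the green line.

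Markers of other cell types mostly lay below the bright class. For 5 types that should not arise in a marrow culture (neurons, hepatocytes, muscle, epithelium and germ line), 83 markers were measured; 0 were bright, 31 were dim and their median was 5.28. The highest was the sperm protamine Prm1 at 7.96, on a probe set whose name marks possible binding to related transcripts, and this level was chosen as a reference after the values were seen. Above it lay 7037 genes (38.7%). The sensory receptor family Olfr, with 39 genes measured, had a median of 3.71 and 31 dim members, and the keratin-associated Krtap genes had a median of 3.41 with 33 of 38 dim.

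Among blood lineages, T and NK cell genes had 0 of 15 bright (median 5.38) and B and plasma cell genes 0 of 14 (5.49). The T cell receptor component Cd3e read 3.92, 3.89 and 3.83 and the B cell gene Ms4a1 (CD20) 4.40, 4.35 and 4.07. These were the lowest of their lists. Prf1 (8.57), Cd28 (7.98) and Ighm (8.29) lay between mid and bright, and Cd4 (7.06) and Cd22 (7.27) were mid. Erythroid and megakaryocyte genes had 1 of 12 bright, the platelet chemokine Pf4 with 12.96, 13.08 and 12.95, while the lineage factor Gata1 read 4.27. Mast cell genes had 1 of 11 bright, the histamine-forming enzyme Hdc with 10.75, 10.76 and 10.80, while the mast cell receptor genes Kit and Fcer1a read 3.59 and 3.42. After Pf4 and Hdc, the highest of these lists were Car2 (8.21), between mid and bright, and Cma1 (6.32), mid. Single marker genes of a lineage could thus be bright beside lower ones.

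Neutrophil genes had 3 of 15 bright: S100a9, S100a8 and Lcn2. S100a9, a subunit of calprotectin, read 10.71, 10.85 and 11.02 and Lcn2, an iron-sequestering lipocalin, 10.19, 10.39 and 10.29. Csf3r (9.84) and Mmp8 (7.86) lay between mid and bright, and Camp (7.81), Ngp (7.73), Chil3 (7.32), Mmp9 (6.66) and Ltf (6.04) were mid. Mpo (5.95), Prtn3 (5.35) and the granule protease gene Elane (4.91) lay between dim and mid. Ctsg (4.45) and the chemokine receptor gene Cxcr2 (3.69) were dim. Dendritic cell genes had 2 of 13 bright, Bst2 and Ccl22. The integrin gene Itgax (9.47) lay just under the bright class and the lectin gene Clec10a (7.58) was mid, while Flt3 (4.63) and Cd209a (4.01) were the 2 dim members. Bst2 is also an interferon target and Ccl22 also a member of the cytokine list. Osteoclast genes had 2 of 11 bright, the proton pump subunit Atp6v0d2 (10.88) and the acid phosphatase Acp5 (10.02). The receptor gene Tnfrsf11a (RANK, 9.38), the fusion gene Dcstamp (8.73) and the transcription factor gene Nfatc1 (8.47) lay between mid and bright. Ocstamp (6.98), Itgb3 (6.82), Ctsk (6.74) and Mmp9 (6.66) were mid, and Oscar (5.33) lay between dim and mid. Of the 11, 1 was dim, the calcitonin receptor gene Calcr (3.21).

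Fibroblast genes had 0 of 19 bright and endothelial genes 0 of 13. The highest in each were Pdgfrb (9.81 ± 0.0661) and Kdr (8.76 ± 0.176), while Lum (3.75) and Tek (3.74) were dim. In these whole-culture samples, a few cells of a type and little RNA per cell cannot be told apart.

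Genes of cytokines and chemokines known to respond to LPS were bright for 29 of 39 measured, with a median of 12.08, and 1 was dim. The chemokines led, with Ccl3, Ccl4, Ccl5 (14.21, 14.20 and 14.24) and Cxcl10 (14.11, 14.13 and 14.21) all among the 30 brightest genes. Cxcl1 and Cxcl2, which attract neutrophils, read 13.82, 13.77 and 13.81 and 13.50, 13.53 and 13.55. Il1b, the inflammasome substrate interleukin-1 beta, read 13.86, 13.75 and 13.84. Tnf, the early inflammatory cytokine, read 12.93, 12.73 and 12.91, and Il6 read 12.09, 12.05 and 11.99. Each of these was bright in every array, and Tnf was lowest in replicate 2.

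Other cytokine genes were lower. Ifnb1, the interferon that TRIF signalling induces, read 8.14, 7.91 and 7.68, between the mid and bright classes in mean. Il12a, a subunit of interleukin-12, had a mean of 7.92 ± 0.2 against a bright Il12b (11.81 ± 0.145), its partner subunit. Csf3, a granulocyte growth factor, read 6.52, 5.74 and 5.86 and had the widest spread of the list, with replicate 1 apart on the high side. Cxcl5 read 3.71, 3.64 and 3.45 and was the dim member. Of 39 members, 21 were lowest in replicate 2 and 19 highest in replicate 1, beside 30.3% and 31.4% of all genes, while the median deviation of the list in replicate 2 was -0.03.

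**Figure D3:**
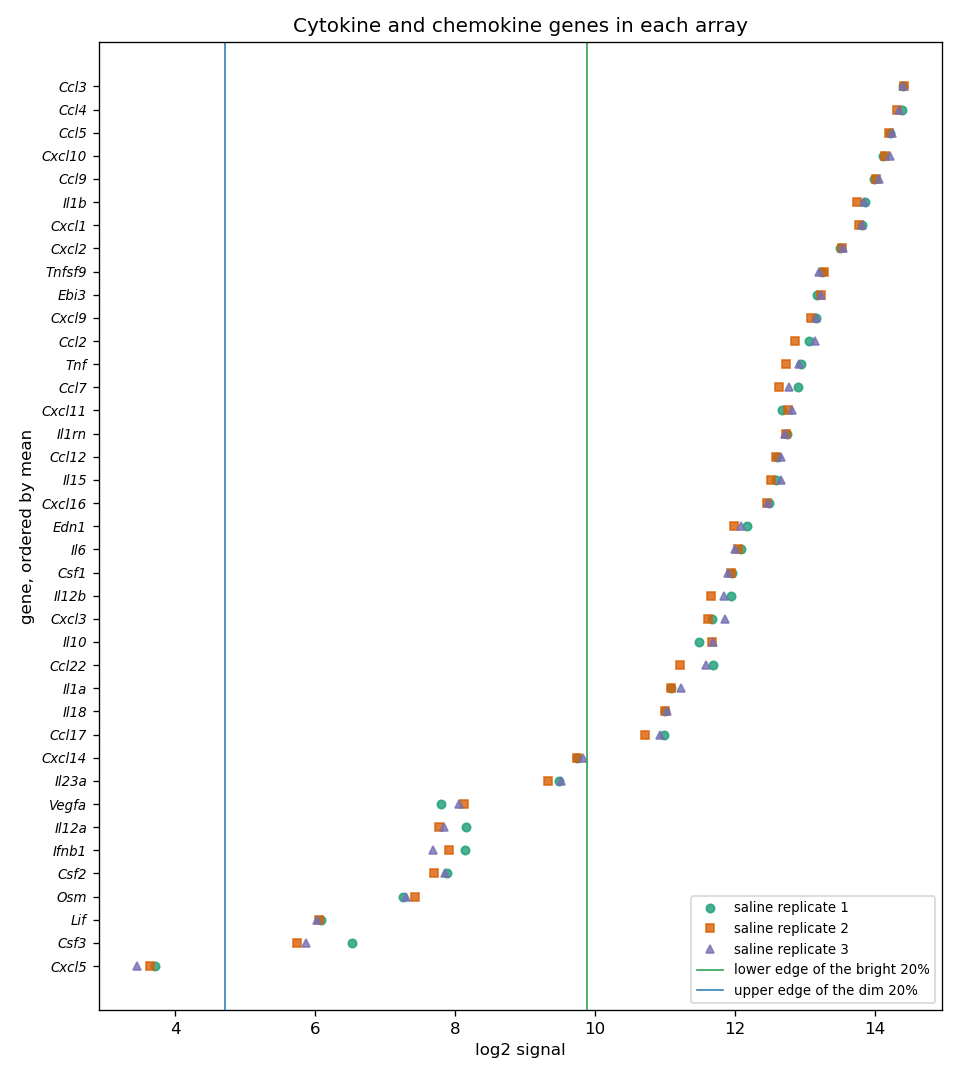
Log2 signal (x axis) of 39 cytokine and chemokine genes (y axis) in each saline replicate (green circle, orange square and purple triangle for replicates 1, 2 and 3), with lines at the edges of the dim and bright classes. The symbols of most genes nearly coincide, 29 genes lie right of the bright edge, and Csf3 shows the widest gap, from 5.74 to 6.52.

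Receptors and signal carriers of the LPS pathway covered a wider range: 18 of 26 measured were bright, with a median of 10.54. Tlr4, the LPS receptor, had a mean of 10.31 ± 0.0325, its partner Ly96 (MD-2) one of 11.00 ± 0.0428 and the adaptor Myd88 one of 11.89 ± 0.0895. Ticam1, which encodes TRIF, had one of 8.33 ± 0.0298. Tlr2 (12.37), Tlr1 (12.33) and Tlr3 (12.26) were bright, while Tlr9, the sensor of CpG DNA, was mid with 6.91, 6.74 and 6.72. Lbp, a serum carrier of LPS made mainly by liver, was lowest at 5.31.

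For NF-kB, 22 of 26 genes were bright. The subunits Rel (12.06), Nfkb2 (11.76) and Rela (10.89) were bright and Relb (9.44) just under. Bright inhibitors and feedback genes were Nfkbia (14.29), Tnfaip3 (A20, 13.44), Nfkbiz (13.29) and Zfp36, which destabilises cytokine messages (13.13). Socs3 and Socs1, both inhibitors of cytokine receptors, had means of 13.74 and 7.89.

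All 35 interferon response genes measured were bright, from 10.62 (Irf9) to 14.55 (Rsad2), with a median of 12.84. Ifit3, Ifit2 and Ifit1, interferon-induced antiviral proteins, had means of 14.03, 13.90 and 13.89. Ifitm3, a membrane protein that hinders viral entry, read 14.14, 14.09 and 14.14. Among the regulators, Irf1 (13.20), Irf8 (12.49), Irf7 (11.51) and Stat2 (11.57) were bright. Of the 35, 20 were highest in replicate 1 and 22 lowest in replicate 2, beside 31.4% and 30.3% of all genes, with median deviations of 0.04, -0.03 and 0.01 in replicates 1, 2 and 3.

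Nlrp3, Pycard and Casp1, the core of the NLRP3 inflammasome, and Nek7 were bright. Nlrp3, the sensor, read 11.81, 11.82 and 11.80 in replicates 1, 2 and 3. Pycard, the adaptor ASC, read 12.32, 12.30 and 12.30, and Casp1, the protease, read 12.70, 12.65 and 12.72. Nek7, a kinase that binds NLRP3, read 11.46, 11.63 and 11.57. The 3 arrays of each of these genes lay within 0.2 of each other. The substrate Il18 read 11.00, 10.99 and 11.02 and the pore-former Gsdmd 11.50, 11.47 and 11.69, replicate 3 being the highest for the latter. Ninj1, which ruptures the plasma membrane late in cell death, had a mean of 13.30, and the non-canonical caspase gene Casp4 one of 12.77. Lower in the list were the ATP-gated channel gene P2rx7, with a mean of 8.93, and Panx1, a large-pore channel, with 7.50. In all, 17 of 23 members measured were bright and none was dim.

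Effectors of the activated state were bright for 30 of 37. Acod1, which makes itaconate, read 14.07, 14.05 and 14.02, Sod2, the mitochondrial superoxide dismutase, 13.97, 13.98 and 13.96 and the co-stimulator Cd40 14.13, 14.10 and 14.15. Ptgs2, the inducible cyclooxygenase, had a mean of 13.26. Nos2, the inducible nitric oxide synthase, was not in the bright class, with 8.41, 8.29 and 8.31. Arg1, an arginase of alternative activation, was lower (6.05) and mid, and Ass1, which makes the precursor for arginine resynthesis, was lowest (5.97).

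Of 22 antigen presentation genes 14 were bright, class I genes among them. B2m, the light chain of class I molecules, read 14.28, 14.27 and 14.26, and the heavy chains H2-D1 and H2-K1 had means of 13.52 and 13.37. Of the class II genes, H2-Aa (11.39) and H2-Ab1 (11.08) were bright, H2-Eb1 (9.58) was not, and the class II master regulator Ciita was mid (6.02). H2-Ob, part of a modulator of peptide loading best known in B cells, was dim with 4.02, 4.76 and 4.22, replicate 2 standing highest. Of 30 Fc, complement and phagocytic receptor genes, 23 were bright, led by Fcer1g, C1qb and the C5a receptor C5ar1 (13.70); the scavenger receptor Marco was mid (7.10).

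Housekeeping groups were bright: 39 of 45 ribosomal protein genes measured, 20 of 20 translation factors, 33 of 35 proteasome and 42 of 45 respiratory chain genes. Rps16, a ribosomal protein every cell needs, nevertheless read 3.54, 3.50 and 3.47, in the dim class, and the cytochrome oxidase subunit Cox7c read 6.56, 6.72 and 6.57, in the mid class. Both stood far below the median of their lists (13.58 and 12.34).

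In energy metabolism, 15 of 19 glycolysis genes were bright, led by Aldoa (13.72), Ldha (13.49) and Pgk1 (13.43), and the glucose transporter gene Slc2a1 had a mean of 12.95 beside a mid Slc2a3 (7.37). Of 27 TCA cycle genes 17 were bright, and the pyruvate dehydrogenase kinase gene Pdk4 was dim, with 2.80, 2.61 and 3.05. Of 33 lysosomal genes 29 were bright; the lysosomal regulator Tfeb was not (5.51), while its relative Mitf was (12.40). Lipid genes split widely: Lpl, the lipoprotein lipase, and Apoe were bright (14.05 and 13.62), while the desaturase genes Scd2 and Scd1 were lowest (5.80 and 4.72).

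Cell cycle genes were the functional group nearest to the background, with 7 of 32 bright (21.9%, against 20% of all genes) and a median of 8.21. Cdkn1a, the p21 inhibitor of cyclin-dependent kinases, led with 13.81, 13.78 and 13.88. Mki67, a proliferation marker, read 12.48, 12.51 and 12.56, and Pcna 12.81 in mean. The mitotic genes Plk1 (6.42), Aurkb (6.08) and Cenpf (5.71) were mid or lower. Signals of single proliferation genes were therefore spread over several classes. Immediate early genes were bright for 14 of 29, with Dusp1 (13.51) highest and Fosb (4.23) dim. Integrated stress response genes were bright for 12 of 27, from Nupr1 (13.26) to Vldlr (4.63).

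Some markers of distant cell types also lay in the mid class, so a mid signal is a weak sign of a transcript. The list members nearest the median over genes (6.74) came from several lists: the DNA sensor gene Tlr9, the class II accessory gene H2-DMb2, the stress kinase gene Eif2ak3 and the DNA replication gene Mcm2, beside the synaptic gene Syp and the fibroblast gene Fap. Eif2ak3 read 6.60, 6.62 and 6.68 and Syp 6.58, 6.67 and 6.71. Of the 83 distant markers, 77 lay below this median. The dimmest gene was Adam25, a testis metalloprotease, with 2.21, 2.22 and 2.23.

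Sex-linked transcripts read alike in the 3 arrays. Xist, the RNA of the inactive X chromosome, read 12.46, 12.35 and 12.37 in replicates 1, 2 and 3. The Y-linked genes Uty (3.47, 3.34 and 3.37) and Eif2s3y (4.02, 4.29 and 3.99) were dim and Kdm5d had a mean of 5.10, while their X-linked counterparts Kdm6a, Eif2s3x and Kdm5c had means of 8.82, 12.09 and 9.95. The labels do not give the sex of the mice.

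Promoter sequence differed between signal classes. RefSeq promoters, taken here as 250 bases before to 50 after the start, were matched by symbol, and 11791 measured genes had exactly 1. Median GC content was 61.7% in bright, 59.7% in mid and 51.3% in dim genes, with 22, 18 and 6 CpG dinucleotides. TATAAA on either strand was found in 8.23% of bright, 16.8% of dim and 10.2% of all these genes. The share did not follow the order of signal: it was lowest between the mid and bright classes (5.53%), and the 100 brightest genes held TATAAA in 15 of the 73 with a promoter (20.5%). These shares are descriptions with no test.

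The cytokine and interferon lists had other shares than the bright class. TATAAA was present in 9 of 23 cytokine and chemokine promoters (39.1%), and 4 of the 23 (17.4%) held an NF-kB motif, beside 0.507% of bright genes. the ISRE core was present in 12 of 20 interferon list promoters (60%), beside 4.86% of bright and 3.07% of all measured genes. Over all 32851 promoters of the table, TATAAA was found in 13.6%, an NF-kB motif in 0.244% and the ISRE core in 3.44%. Of the same 73 promoters of the 100 brightest genes, 10 held the ISRE core.

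Variation between replicates was smallest in the bright class. The median SD over genes was 0.103 in the dim, 0.110 in the mid and 0.0591 in the bright class. The 100 brightest genes had a median SD of 0.0256 and none above 0.0805. The highest value in any saline array was 14.72, the table carries no mark of saturated probes, and the part of saturation in this small spread was not tested. An SD from 3 arrays is imprecise: its 95% interval, if values are normal, runs from 0.521 to 6.28 times the estimate. The highest and lowest array differed by at least 1.5-fold in 381 genes (2.09%), of which 111 were dim, 120 between dim and mid, 120 mid, 29 between mid and bright and 1 bright, and by at least 2-fold in 17. With replicate 1, 2 or 3 left out, the first count was 146, 122 or 198 and the second 10, 6 or 8, a range over fewer arrays being smaller.

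**Figure D4:**
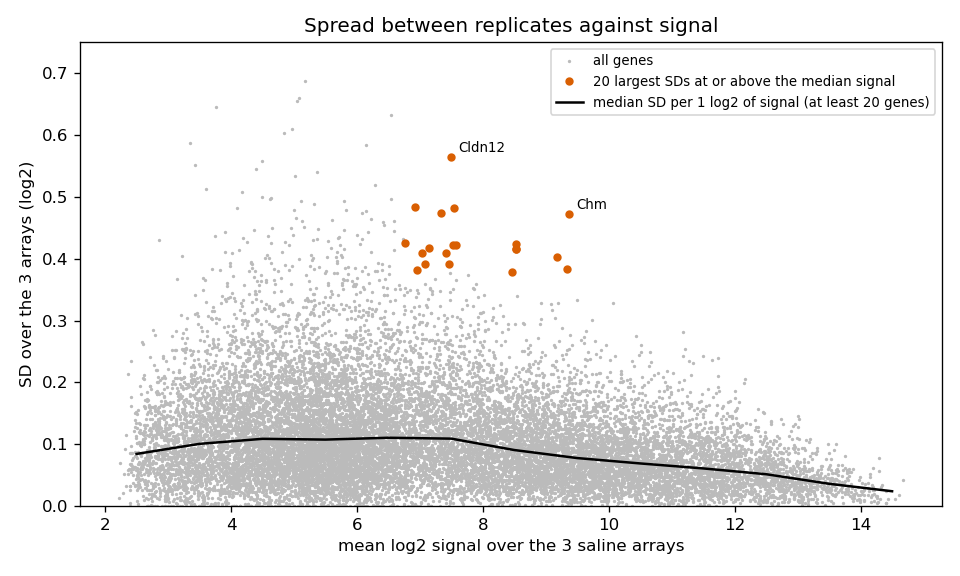
SD over the 3 saline arrays (y axis, log2) against mean log2 signal (x axis) for 18193 genes (grey), with the 20 largest SDs at or above the median signal in orange and the median SD per 1 log2 of signal as a black line. The line lies near 0.1 below a signal of 8 and drops toward the bright end, and Cldn12 has the largest SD at or above the median, 0.565.

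The bright gene that varied by 1.5-fold was Clec2d, a ligand of a natural killer cell receptor, with 9.71, 10.13 and 10.36 in replicates 1, 2 and 3. The genes with the next largest SDs in the bright class were Sema4c (10.86, 11.29 and 11.38), a semaphorin, and Bak1 (10.73, 10.38 and 10.19), a pore-former of mitochondrial cell death. Sema4c was lowest in replicate 1 and Bak1 highest there. Of the 10 largest SDs in the bright class, 7 were of genes lowest in replicate 1, 3 of genes lowest in replicate 3 and 0 of genes lowest in replicate 2. Over all genes, 35.9%, 29.7% and 30.3% were lowest in replicates 1, 3 and 2, and 10 genes are few. Clec2d, Sema4c and Bak1 were outside the naming rule and were chosen after their values were seen.

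Among genes at or above the median signal, the largest SD was that of Cldn12, a claudin of tight junctions, with 7.01, 8.12 and 7.37. Cdca5, the sororin that holds sister chromatids together, read 6.37, 7.18 and 7.23, replicate 1 standing apart on the low side. Chm, a Rab escort protein, read 8.83, 9.72 and 9.55 with the same array low. Elovl6, a fatty acid elongase, read 8.07, 8.87 and 8.66, and Cd24a, a surface glycoprotein, 8.07, 8.88 and 8.63. Tigd3 (7.38, 6.84 and 7.78) and Adcy9, an adenylate cyclase (7.74, 7.10 and 7.90), were instead lowest in replicate 2, and Kcnj2, an inward rectifier potassium channel, lowest in replicate 3 (7.03, 6.98 and 6.27). The 20th largest SD was that of Mmp10 (0.378) and the next, outside, that of Nudt7 (0.376).

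None of these 20 genes was a member of a gene list, but only 876 of all 18193 genes were, so this count says little. The highest mean among the 20 was 9.37 (Chm). Probe sets whose names mark possible binding to related transcripts read 8 of the 20, against 9.11% of all genes. Cd24a, Adcy9 and Arhgap21 were among the 8. Of the 20, 14 were highest in replicate 2, 13 lowest in replicate 1 and 12 both. Among the 83 genes at or above the median signal with a range of at least 1.5-fold, 55 were highest in replicate 2 and 51 lowest in replicate 1, with 44 both. Among all 18193 genes, 6516 were highest in replicate 2, 6538 lowest in replicate 1 and 3760 both. Replicates 1 and 2 were also the pair with the largest SD of differences (0.196, against 0.175 and 0.178).

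**Figure D5:**
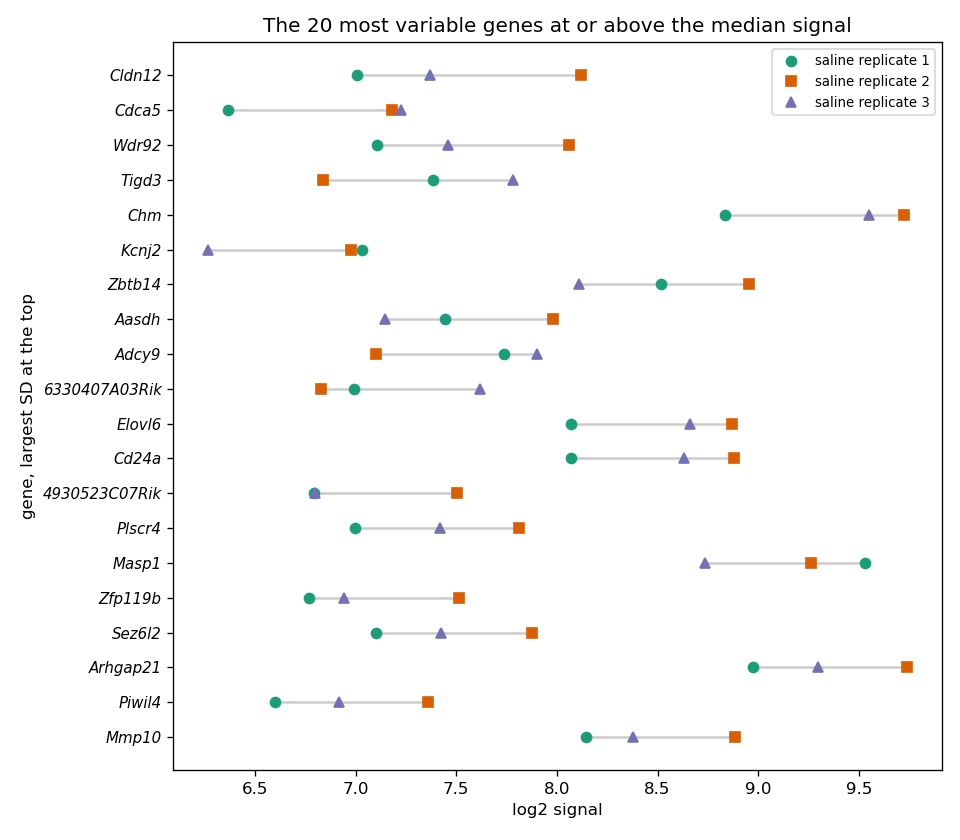
Log2 signal (x axis) in saline replicates 1, 2 and 3 (green circles, orange squares and purple triangles) of the 20 genes with the largest SD at or above the median signal (y axis, largest SD at the top). The orange square is the highest symbol in 14 genes and the green circle the lowest in 13.

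A second probe set of the same gene gives a partly separate reading. Of the 20 genes 7 had another probe set at or above the median, without ties, and in 5 of the 7 it was highest in the same array. For Elovl6 it read 6.97, 7.37 and 7.24, and for Cd24a 7.49, 7.75 and 7.62, with replicate 1 lowest and replicate 2 highest in both, as in the first probe set. For Arhgap21 the brightest probe set read 8.98, 9.74 and 9.29 and the second 8.04, 8.03 and 8.02, which did not follow. Over all 3875 genes with such a pair, the same array was highest in 40.2%, and over the 26 genes at or above the median signal varying by 1.5-fold in 61.5%.

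The same measure was taken in arrays that the rule did not use. The 100 genes at or above the median signal with the largest saline SD had a median SD of 0.280 within the TMT arrays, against 0.133 over all genes at or above the median, and of 0.252 against 0.171 within the TET arrays. Of the 100, 76 and 71 lay above those medians. No level was compared between treatments here.

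The gene groups did not move far between replicates. The median deviation of a list from the mean of the 3 arrays was at most 0.09 in size, for neutrophil genes in replicate 2 (8 of 15 highest there). Fibroblast genes had a median deviation of 0.07 in the same array, with 10 of 19 highest there. In the TCA cycle list 16 of 27 genes were highest in replicate 2, and in the hypoxia list 11 of 18. Over all genes, 35.8% were highest in replicate 2. Over all genes the medians were within 0.01 of 0. The part of cell composition in these shifts was not tested.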

How the data were processed

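Total RNA of 3 saline arrays was described, out of 9 arrays in the deposited table. Per the labels' protocols, 50 ng was amplified by Nugen WT-Ovation Pico, biotin-labelled and read on Affymetrix Mouse Genome 430 2.0 arrays. The deposited log2 signals were made with RMA and affy, per the submitters' processing notes, with no version given in the sources used here. The base of the logarithm is not given in the sources used here and was taken from the values (2.09 to 14.72 in the saline arrays), and whether all arrays were normalized together is not stated. RMA makes distributions of arrays alike, so differences in total RNA are not visible.

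The values were used without further normalization. Gene names came from the platform annotation: 34945 named 1 gene, 932 several and 9160 none, and the last 2 kinds were left out. Of the gene identifiers, those of 204 probe sets were not in the reference table (GRCm38.p6). Python 3.11.15 with pandas 2.3.3, numpy 2.4.6 and scipy 1.17.1 gave means, SDs, ranges and classes. No test was run, since there is 1 condition. The spread measures recovered shifts of single arrays on simulated data, but those shifts were set above 2-fold, with the same small noise in every gene. Smaller shifts were not simulated, so this checks the code and gives no support to the spread counts.

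The 39 gene lists held 991 genes, of which 876 (88.4%) were measured. The members, lists and naming rule were chosen with earlier results of these data known. Genes were named by rule: the 30 brightest, 12 list members nearest the median, up to 4 brightest and 2 dimmest of each list, bright cell type markers, the 20 largest SDs at or above the median signal and the 5 largest over all genes, the inflammasome genes, Tnf and Il6, and sex-linked genes. Defining markers named for a cell type and other list members named with a value were chosen after their values were seen. Alternatives were leaving out each replicate, averaging probe sets, other scalings and a filter on low values. Another dropped probe sets ending in _x_at, _s_at or _a_at.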

Additional observations from a re-analysis of the deposited data

How the results depend on the processing

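Of the 100 brightest genes, 98 to 100 stayed among the 100 brightest when a replicate was left out, 56 when the probe sets of a gene were averaged and 52 without probe sets ending in _x_at, _s_at or _a_at. The 17 genes with a range of at least 2-fold became 6 to 10 with a replicate left out, 11 with averaged probe sets and 1 when only genes at or above the median were kept. The 381 genes with a range of at least 1.5-fold became 122 to 198 with a replicate left out (146 without replicate 1, 122 without replicate 2 and 198 without replicate 3), since a range over fewer arrays is smaller, and 231 with averaged probe sets. Centring on the median or quantile normalization left the 100 brightest as they were and gave 384 and 374 such genes. RMA had already made the arrays alike, so these scalings could change little. The median SD was 0.0664 to 0.0801 with a replicate left out. Macrophage genes in the bright class were 26 to 29 and cytokine genes 28 to 31 over all alternatives. Of 302 genes named by the rule, 150 moved by more than 1 SD with averaged probe sets. Without probe sets of the endings _x_at, _s_at or _a_at, 57 moved and 53 were not measured. Those ending in _a_at were not counted above as marking possible binding to related transcripts. No paired analysis was possible because the results come from 1 condition and no test. Same-numbered saline and TMT arrays correlated at 0.32, 0.53 and -0.04 in their deviations, and saline and TET arrays at -0.27, -0.17 and -0.05. Saline replicate 1 correlated at 0.51 with TMT replicate 3 and at -0.54 with TMT replicate 2. Deviations from the mean of 3 arrays depend on each other, so these values cannot decide whether same-numbered arrays were paired. How far each signal stood above background is not in the table.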

Other observations

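The genes with the largest SDs over all signals lay below the median. Gm1976, a predicted gene, read 5.96, 4.83 and 4.72 in replicates 1, 2 and 3, with replicate 1 apart on the high side. Lamb1, a laminin chain of basement membranes, read 4.69, 5.84 and 4.71, and Flrt3, an adhesion protein, 6.55, 7.18 and 5.92, both highest in replicate 2. The predicted transcripts 9130208D14Rik and Gm20161 read 5.37, 4.29 and 5.48 and 3.50, 4.50 and 3.29. Each of these 5 genes varied by more than 2-fold.

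Vomeronasal receptor genes (Vmn, 32 measured) had a median of 3.32 with 27 dim, and defensin beta genes (Defb, 20 measured) a median of 3.94 with 15 dim. None of either family was bright.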
